A study of Mus musculus with 36 samples.

Results

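The data described here are the islands of 3 histone marks at the promoters of 10 Sox genes, which were taken by name and listed by subgroup: Sox1 and Sox2 (B1), Sox14 and Sox21 (B2), Sox4 and Sox11 (C), Sox8 and Sox9 (E), and Sox7 and Sox18 (F). They are 10 of 21938 protein-coding promoters. ChIP-seq of H2AK119ub1, H3K27me3 and H3K36me2 was performed on mouse hippocampi at postnatal day 0 and on neurospheres. Neurospheres were floating cultures of neural progenitors taken from hippocampi at that age and kept in FGF2 and EGF for 3 generations. Conditional knockout (cKO) mice carried the genotype Kdm2bEmx1-delta-CxxC, in which Emx1-Cre removes the CxxC zinc finger of KDM2B, and control (Ctrl) mice were Kdm2bfl/+ or Kdm2bfl/fl. There were 2 libraries of each kind, 24 in all, beside 12 inputs that served the authors as background. The labels do not say whether the 2 came from separate animals or cultures, so p-values measure only the spread between these libraries. Emx1-Cre acts in progenitors of the dorsal telencephalon and their descendants, so blood vessel cells, microglia and other cells of the dissected tissue keep an intact Kdm2b. In such bulk samples, fewer cells carrying a mark and less mark per cell cannot be told apart.

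Sox proteins are transcription factors that bind DNA through a high mobility group box. SOX1 and SOX2 hold cells in the neural progenitor state, SOX21 counteracts them, and SOX14 is known from subsets of interneurons outside the dorsal telencephalon. SOX4 and SOX11 act in newborn neurons, SOX8 and SOX9 in glia and, for SOX9, neural stem cells, and SOX7 and SOX18 in blood vessel endothelium. H2AK119ub1 and H3K27me3 are placed by Polycomb repressive complexes (PRC1 and PRC2) and are found at silent CpG-rich promoters of developmental genes. KDM2B reaches CpG-rich DNA through its CxxC domain, brings PRC1 there and, in its long form, removes H3K36me2. The question was which Sox promoters lay in islands of these marks, and whether this differed between sources and after loss of the CxxC domain.

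An island is a stretch of the genome in which reads exceed the input background, and the files give its position and its count of reads. Promoter coverage is the share of the 4000 bases around the annotated start (TSS) of a gene that lies in islands. Because islands were called in each library separately, nothing is known of the count at a position outside them, and a coverage of 0% means that no island was called. Counts inside islands ranged from 987329 to 22021439 per library, and within a mark and source by up to 6.89-fold, in hippocampus H2AK119ub1. In that comparison the libraries numbered 1 stood apart, with 1015578 (Ctrl) and 987329 (cKO) counts. In neurosphere H3K36me2, cKO replicate 1 stood apart, with 22021439 counts and islands at 42.2% of promoters. In neurosphere H2AK119ub1, Ctrl replicate 1 had 17734396 counts, against 5025115 in Ctrl replicate 2 and 6028205 and 11666627 in cKO. In hippocampus H3K27me3, Ctrl replicate 2 had 1681001 counts, against 5117758 to 5525016 in the other libraries. Promoters of the housekeeping genes Actb and Gapdh had no H3K27me3 island in any library, and 6 of 7 promoters of other lineages (Hoxa9, Hoxd10, Gata4, Tal1, Myod1 and Pax2) had one in all 8. Among telencephalic promoters, those of Emx1, Tbr1 and Neurod2 carried H3K27me3 in all 4 neurosphere libraries and that of Emx2 in none. In hippocampus that of Neurod2 carried it in all 4 libraries, and 3 to 8 of 9 telencephalic promoters had an island per library. These markers were thus mixed in both sources. Islands do not show the deleted exon, and the genotype labels could not be checked with them.

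All 10 promoters were CpG-rich. The 1 kb around their TSS held between 56 (Sox14 and Sox4) and 100 (Sox11) CpG sites, against a median of 41 over all promoters and 72 over the 9728 CpG-rich ones. Sox1, Sox2, Sox14, Sox21, Sox4 and Sox11 are single-exon genes in the annotation, so that a window of 2 kb after the TSS holds most or all of several of them. Sequences upstream of the start were shown for 4 members that differed in H3K27me3 as described below: Sox14, with H3K27me3 over its whole promoter in 8 of 8 libraries, Sox21, with it in hippocampus alone, and Sox2 and Sox4, with no H3K27me3 island at the promoter. Each is the 250 bases before the RefSeq start, written 5′ to 3′ on the strand of the gene, in build GRCm38.p6, with each CG, which reads the same on both strands and is the target of a CxxC domain, in capitals. They lie at chr9:99876171-99876420 (minus strand), chr14:118237031-118237280 (minus), chr3:34649745-34649994 (plus) and chr13:28953700-28953949 (minus).
Sox14: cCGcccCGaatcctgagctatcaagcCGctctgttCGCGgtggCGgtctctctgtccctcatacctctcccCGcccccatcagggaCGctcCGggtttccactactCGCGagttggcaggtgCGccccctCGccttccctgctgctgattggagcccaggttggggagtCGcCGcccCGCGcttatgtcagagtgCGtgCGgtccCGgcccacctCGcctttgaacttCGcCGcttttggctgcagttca
Sox21: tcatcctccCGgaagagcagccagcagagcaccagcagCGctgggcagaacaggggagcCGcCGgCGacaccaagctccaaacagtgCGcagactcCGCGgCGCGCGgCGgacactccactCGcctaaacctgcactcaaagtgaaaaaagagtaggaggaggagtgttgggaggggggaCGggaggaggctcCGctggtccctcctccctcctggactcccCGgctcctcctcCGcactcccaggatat
Sox2: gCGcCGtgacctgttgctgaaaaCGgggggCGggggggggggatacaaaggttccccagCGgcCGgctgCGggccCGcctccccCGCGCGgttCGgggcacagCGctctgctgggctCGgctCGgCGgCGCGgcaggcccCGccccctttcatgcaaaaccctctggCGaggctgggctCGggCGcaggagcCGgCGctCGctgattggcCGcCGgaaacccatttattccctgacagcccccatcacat
Sox4: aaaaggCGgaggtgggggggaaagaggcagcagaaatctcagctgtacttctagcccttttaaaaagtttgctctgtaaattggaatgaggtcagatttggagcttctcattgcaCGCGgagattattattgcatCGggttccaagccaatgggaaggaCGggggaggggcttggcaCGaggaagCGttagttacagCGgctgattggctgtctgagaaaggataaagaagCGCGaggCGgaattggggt
The window of Sox14 held 23 CG, that of Sox21 17, that of Sox2 27 and that of Sox4 11, where the median of 32851 such windows was 6 and 92.1% held at least 1. Among these 4, the 2 promoters without H3K27me3 held both more (Sox2) and fewer (Sox4) CG than the 2 with it. Of those not shown, Sox1, with H3K27me3 in hippocampus, held 29 CG, and Sox11, without it, held 17. The reference table matched 7 of the 10 members, and Sox7, Sox9 and Sox18 are named without a sequence.

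H3K27me3 divided the members into 3 groups. Sox14, Sox7 and Sox18 had an island at the promoter in all 8 libraries of the mark, Sox1 and Sox21 in all 4 hippocampus libraries but not in neurospheres, apart from an edge of Sox1 in a single Ctrl library, and Sox2, Sox4, Sox11 and Sox9 in none. Sox8 had an island in hippocampus cKO replicate 2 alone. In hippocampus, 5 of 10 members had an island in all 4 libraries, against 8.36% of all promoters and 10.0% of CpG-rich promoters. In neurospheres it was 3 of 10, against 15.5% of all promoters. The mean H3K27me3 coverage of the 10 promoters was 46.8% and 50% in hippocampus Ctrl and 40.8% and 60% in cKO, and 30% and 31.3% in neurosphere Ctrl and 30% in each cKO library. Over all promoters, the mean was between 8.37% and 19.5% in these 8 libraries.

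**Figure D1:**
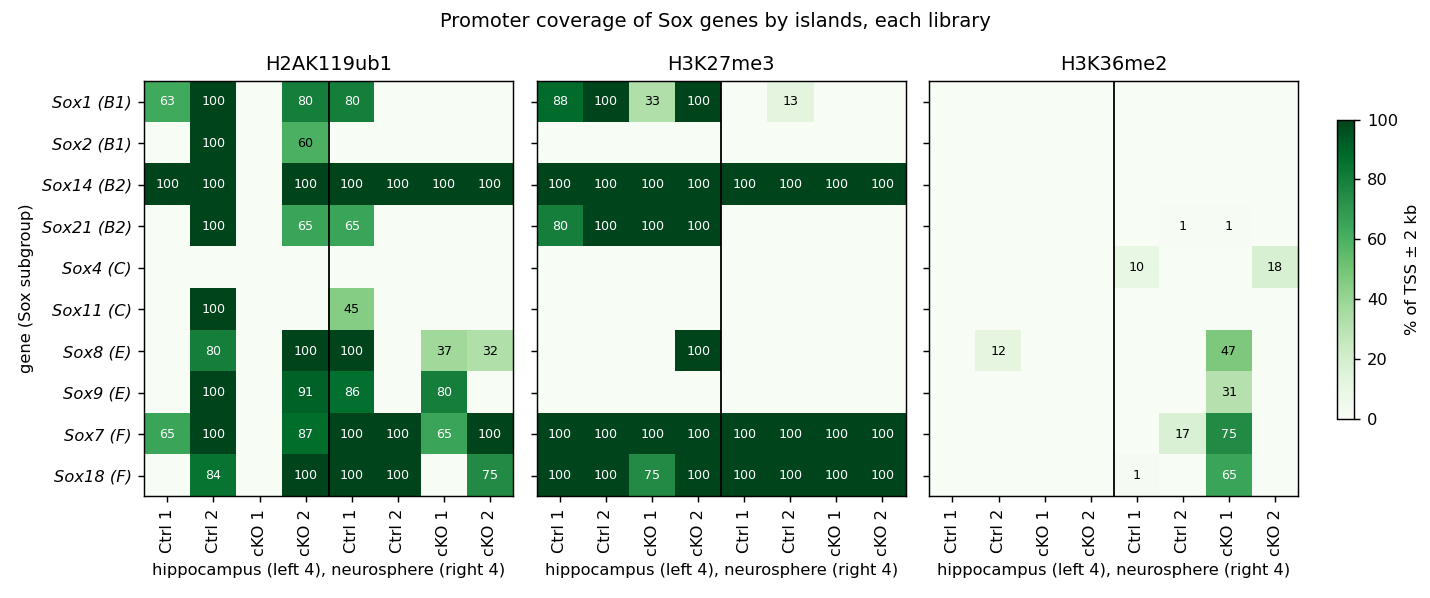
Percentage of TSS ± 2 kb covered by islands for the 10 Sox genes (rows, with subgroup) in each of the 8 libraries of H2AK119ub1, H3K27me3 and H3K36me2 (columns; empty cells are 0). H3K27me3 covered the Sox14 and Sox7 promoters fully in 8 of 8 libraries, the Sox1 and Sox21 promoters had H3K27me3 islands over 32.65% to 100% in the 4 hippocampus libraries, and the first hippocampus cKO library of H2AK119ub1 had no island at any of the 10.

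Sox14, a B2 gene (ENSMUSG00000053747.9, TSS at 99876170 of chromosome 9, minus strand), lay in the densest H3K27me3 island of the 10 genes in 7 of 8 libraries, the exception being hippocampus cKO replicate 2, where that of Sox7 was denser. In hippocampus the island measured 27.4 and 22.6 kb (Ctrl) and 23.6 and 47.4 kb (cKO). In neurospheres it measured 40.8 and 15.4 kb (Ctrl) and 36.2 and 54.8 kb (cKO). In both sources the genotypes overlapped in width. It reached 15.4 to 37.8 kb downstream of the TSS in hippocampus, and no other protein-coding TSS lay inside the widest islands. Its density, the counts per kb of island, was 63.7 and 54.0 in hippocampus Ctrl and 68.1 and 63.6 in cKO, above those of 91.5% to 98.2% of the promoter islands of the same library. In neurospheres it was 151 and 222 in Ctrl against 107 and 99.1 in cKO. Both neurosphere cKO libraries were thus below both Ctrl libraries, at a ratio of the means of 0.551, while Ctrl replicate 2 had the shortest of the 4 islands. A density below Ctrl without overlap was found for 69.8% of 3401 promoter islands called in all 4 neurosphere libraries.

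The Sox14 promoter was also the one most often covered in full by H2AK119ub1. Islands covered all of it in both hippocampus Ctrl libraries, in hippocampus cKO replicate 2 and in all 4 neurosphere libraries. Hippocampus cKO replicate 1, the library with the fewest counts, had none. In neurospheres the H2AK119ub1 island was 15.4 and 14.8 kb wide in Ctrl, against 20.8 and 28.4 kb after deletion. Its density was 110 and 72.2 counts per kb in Ctrl, against 41.8 and 48.3 after deletion. The cKO islands with the largest promoter overlap were therefore wider and less dense, without overlap between the genotypes in either measure. The width did not separate them over the region merged over libraries. There, all islands together were 27.6 and 28.6 kb long in Ctrl against 20.8 and 32.2 kb in cKO. A width above Ctrl without overlap was found for 3.60% of 1474 promoter islands called in all 4 libraries, and a density below Ctrl for 65.0%. Divided by the mean over all islands of the library, the density of Sox14 was still lower, at 1.21 and 1.30 against 2.02 and 1.82, as for 30.9% of these islands. No H3K36me2 island lay within 50 kb of the Sox14 TSS in any of the 8 H3K36me2 libraries.

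Sox21, the other B2 gene (ENSMUSG00000061517.8, TSS at 118237030 of chromosome 14, minus strand), carried H3K27me3 in hippocampus only. Coverage of its promoter was 80% and 100% in hippocampus Ctrl, 100% in both cKO libraries and 0% in all 4 neurosphere libraries. In hippocampus its island was 30.8 and 33.6 kb wide in Ctrl, against 53.2 and 37.8 kb after deletion, so both cKO islands were wider, as for 26.8% of 1833 promoter islands called in all 4 libraries. All islands of the merged region together were 68.8 and 44.8 kb long in Ctrl against 65 and 65.8 kb in cKO, and overlapped. The island at the promoter lay mostly downstream of the TSS, by 29.2 to 48.4 kb, and reached at most 4.77 kb upstream. H2AK119ub1 covered 100% of the Sox21 promoter in hippocampus Ctrl replicate 2, and 65% in each of cKO replicate 2 and the first neurosphere Ctrl library, and the remaining 5 libraries had no island there.

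Sox1, a B1 gene (ENSMUSG00000096014.1, TSS at 12395295 of chromosome 8, plus strand), had its island on the other side of the TSS. H3K27me3 covered 87.65% and 100% of its promoter in hippocampus Ctrl and 32.65% and 100% in cKO, and in neurospheres 0% and 12.65% in Ctrl and 0% in both cKO libraries. The hippocampus island was 20.2 and 20.6 kb wide in Ctrl, against 22 and 23.4 kb after deletion, and reached 17.7 to 22.7 kb upstream. In cKO replicate 1 it ended 0.695 kb before the TSS. H2AK119ub1 covered 62.65% and 100% of the Sox1 promoter in hippocampus Ctrl and 0% and 80% in cKO, and in neurospheres 80% and 0% in Ctrl and 0% in both cKO libraries. Coverage overlapped between genotypes in all of these comparisons, while the hippocampus H3K27me3 island at the promoter was wider in both cKO libraries. All islands of the merged region together did overlap in length, at 37.2 and 26.4 kb in Ctrl against 29.6 and 35.4 kb in cKO.

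**Figure D2:**
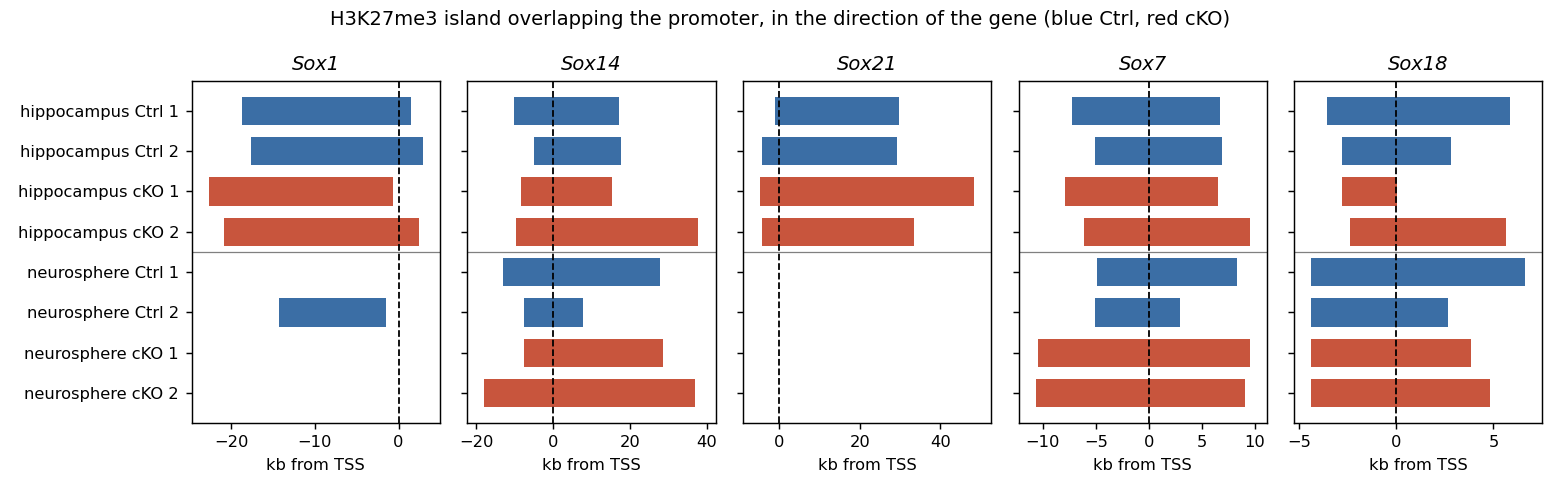
Extent of the H3K27me3 island overlapping the promoter of Sox1, Sox14, Sox21, Sox7 and Sox18 in each library, in kb from the TSS (dashed line) in the direction of transcription, with Ctrl in blue and cKO in red; the scale differs between panels. Hippocampus islands lay upstream of the Sox1 TSS and downstream of the Sox21 TSS, and in neurospheres the Sox7 islands of both cKO libraries, at 20 and 19.8 kb, were wider than those of Ctrl, at 13.2 and 8 kb.

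Sources were compared over the 8 libraries of a mark. Sox1 and Sox21 were the 2 members whose H3K27me3 coverage in every neurosphere library lay below that in every hippocampus library, which 1.25% of all promoters did. The mean coverage of Sox1 was 80.1% ± 32.1 (SD, n = 4) in hippocampus and 3.16% ± 6.33 (SD, n = 4) in neurospheres, and that of Sox21 was 95% ± 10 (SD, n = 4) and 0%. For each gene the two-sided exact permutation test within genotypes gave p = 0.0556, the smallest that its 36 splits allow, and the Benjamini-Hochberg adjusted p over all promoters was 0.717. The difference was present in Ctrl libraries alone, at -87.5 percentage points for Sox1 and -90 for Sox21 (exact permutation p = 0.333, the smallest for 2 against 2). Among the other 9 Sox genes, Sox5 did likewise. No member was higher in every neurosphere library, as 5.85% of promoters were. The promoters of the oligodendrocyte genes Olig1, Olig2 and Sox10 also had H3K27me3 islands in all 4 hippocampus libraries. In neurospheres Olig1 and Olig2 had none and Sox10 had one in cKO replicate 1 alone. The astrocyte gene Aldh1l1 went the other way, with an island in all 4 neurosphere libraries and none in hippocampus. Aqp4, also of astrocytes, had none in either source. Hippocampus and neurospheres differ in cell makeup, in time in culture and in counts in islands, which cannot be told apart from source here. For H2AK119ub1, 0 of 10 members separated the sources in either direction, as 0.0501% (neurosphere lower) and 1.73% (higher) of promoters did, and for H3K36me2 it was 0 of 10 against 0.0365% and 3.18%.

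The Sox1 locus was not free of H3K27me3 in neurospheres. Within 50 kb on each side of the TSS, islands covered 77.6% and 71% in neurosphere Ctrl and 48.6% and 15.2% in cKO, and between 45% and 67.6% in the 4 hippocampus libraries. Both neurosphere Ctrl libraries were therefore above all 4 hippocampus libraries in this wider window, although the promoter itself was almost free of islands, and both neurosphere cKO libraries were below Ctrl. For Sox21 the flanks were covered over 15% and 21% in neurosphere Ctrl and 9% and 0% in cKO, against 42.8% to 67.4% in hippocampus. A coverage of this wider window below Ctrl without overlap was found for 13.5% of all genes, and 2 of 10 members were among them. Sox7 was higher in cKO, at 62.1% and 57.1% against 29.3% and 31.4%, as were 17.5% of all genes. In hippocampus H3K27me3, 3 of 10 members were higher, against 19.2% of genes. They were Sox2, Sox14 (63.8% and 57.4% against 56.4% and 39%) and Sox7 (33.2% and 30.8% against 18.8% and 12%). These windows were compared after their values had been seen, and the exact permutation test of 2 against 2 libraries cannot go below p = 0.333.

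Sox2, the other B1 gene (ENSMUSG00000074637.7, TSS at 34650405 of chromosome 3, plus strand), had no H3K27me3 island at its promoter in any library, and the nearest one in neurospheres lay between 198 and 450 kb away. H2AK119ub1 was found in the hippocampus libraries numbered 2 only, over 100% of the promoter in Ctrl replicate 2 and 60% in cKO replicate 2, at 26.9 and 30.8 counts per kb. No neurosphere library had one there. In neurospheres, where these cells are grown as progenitors, the 50 kb on each side held H2AK119ub1 over 18% and 20% in Ctrl and 3.2% and 0% in cKO. In hippocampus H3K27me3, the same window held 0% in both Ctrl libraries and 5% and 16.4% in cKO. Coverage of the wide H2AK119ub1 window below Ctrl without overlap was found for 5.99% of genes, and for 3 of 10 members, Sox2, Sox4 and Sox11.

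The C genes of newborn neurons carried few Polycomb islands. Sox4 (ENSMUSG00000076431.4, TSS at 28953713 of chromosome 13, minus strand) had neither H3K27me3 nor H2AK119ub1 at its promoter in any of the 16 libraries of these marks. Sox11 (ENSMUSG00000063632.6, TSS at 27342574 of chromosome 12, minus strand) had no H3K27me3 island, and H2AK119ub1 covered 100% of its promoter in hippocampus Ctrl replicate 2 and 45% in neurosphere Ctrl replicate 1. These islands were 4.4 and 1.8 kb wide. That of hippocampus, at 18.9 counts per kb, was denser than 0.559% of the promoter islands of its library. Within 50 kb, H2AK119ub1 covered 17.6% and 29.2% around Sox11 in neurosphere Ctrl and 5.4% and 15.2% in cKO.

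The E genes of glia showed H2AK119ub1 without a steady H3K27me3 island. At Sox9 (ENSMUSG00000000567.5, TSS at 112782224 of chromosome 11, plus strand), H2AK119ub1 covered 100% in hippocampus Ctrl replicate 2, 90.575% in cKO replicate 2, 85.575% in neurosphere Ctrl replicate 1 and 80% in cKO replicate 1, and 0% in the other 4. At Sox8 (ENSMUSG00000024176.10, TSS at 25570686 of chromosome 17, minus strand), it covered 80% and 100% in the hippocampus libraries numbered 2, and in neurospheres 100% and 0% in Ctrl and 37.15% and 32.15% in cKO. In both cKO libraries that Sox8 island ended upstream, 0.515 and 0.715 kb before the TSS. Sox8 was the only member with H3K27me3 in 1 of 8 libraries, over 100% of the promoter in hippocampus cKO replicate 2, at 35 counts per kb, in an island of 6.4 kb. That library had the most promoters with an H3K27me3 island among the 4 of hippocampus (5658 against 2703 to 3903).

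The F genes of blood vessels carried both Polycomb marks. Of 3 endothelial marker promoters, those of Pecam1 and Tek had no H3K27me3 island in any library and that of Cdh5 had one in 1 of 4 hippocampus libraries (cKO replicate 2, 60.6%) and in 2 of 4 neurosphere libraries (Ctrl replicate 2 and cKO replicate 1, 100% each). Their part in the values of Sox7 and Sox18 was not tested. Sox7 (ENSMUSG00000063060.6, TSS at 63943673 of chromosome 14, plus strand) was covered fully by H3K27me3 in all 8 libraries. In neurospheres its island was 13.2 and 8 kb wide in Ctrl, against 20 and 19.8 kb after deletion, and it reached 4.87 and 5.07 kb upstream in Ctrl, against 10.5 and 10.7 kb after deletion. Density was 79.4 and 74.25 counts per kb in Ctrl, against 54.8 and 59.5 after deletion. A width above Ctrl without overlap occurred in 28.3% of 3401 promoter islands called in all 4 libraries, and a density below Ctrl in 69.8%. H2AK119ub1 covered the Sox7 promoter over 65% and 100% in hippocampus Ctrl, 0% and 86.8% in cKO, and in neurospheres over 100% in both Ctrl libraries and 65% and 100% in cKO.

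Sox18 (ENSMUSG00000046470.5, TSS at 181671640 of chromosome 2, minus strand) was the only member whose promoter coverage separated the genotypes, in neurosphere H2AK119ub1. Islands covered 100% in both Ctrl libraries and 0% and 75% in cKO, a pattern of lower cKO coverage found for 3.75% of promoters (exact permutation p = 0.333). The Ctrl islands were 9.4 and 11.4 kb wide, and the only cKO island overlapping the TSS, in replicate 2, was 2.4 kb wide. Further island sequence lay beside it, as islands of that library covered 75% of the promoter and 100% of the gene body. Within 50 kb on each side, H2AK119ub1 covered 39.4% and 11.4% in Ctrl against 19.6% and 9.2% in cKO, and overlapped. In neurosphere cKO replicate 1, the nearest H2AK119ub1 island lay 7.84 kb from the TSS. In hippocampus the coverage was 0% and 84% in Ctrl against 0% and 100% in cKO, and did not separate them. H3K27me3 covered 100% of the Sox18 promoter in 7 of 8 libraries and 75% in hippocampus cKO replicate 1.

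At Sox18 the neurosphere H3K27me3 island was also less dense in cKO. It had 124 and 132 counts per kb in Ctrl and 86.7 and 66.3 in cKO, a ratio of the means of 0.598, with widths of 11 and 7 kb against 8.2 and 9.2 kb that overlapped. All 4 islands began at the same position, 4.36 kb upstream of the TSS. Lower density was common in this comparison, where the median ratio over 3401 promoter islands was 0.751. Density was therefore also divided by the mean over all islands of the library. By this measure Sox18 stood at 2.06 and 2.52 in Ctrl and 2.01 and 1.58 in cKO, and Sox14 at 2.52 and 4.24 in Ctrl and 2.47 and 2.36 in cKO. Both stayed below Ctrl without overlap, as did 25.3% of these islands, while Sox7, at 1.32 and 1.42 against 1.27 and 1.42, overlapped. These values are of 1 island per library. In Ctrl replicate 2 that island was 15.4 of 46.6 called kb in the merged region at Sox14. At Sox18 it was 7 of 10.2 kb. On counts per called kb of the whole region, the edgeR log2 fold changes were -0.18 ± 0.10 (SE) at Sox14 and -0.25 ± 0.12 at Sox18.

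**Figure D3:**
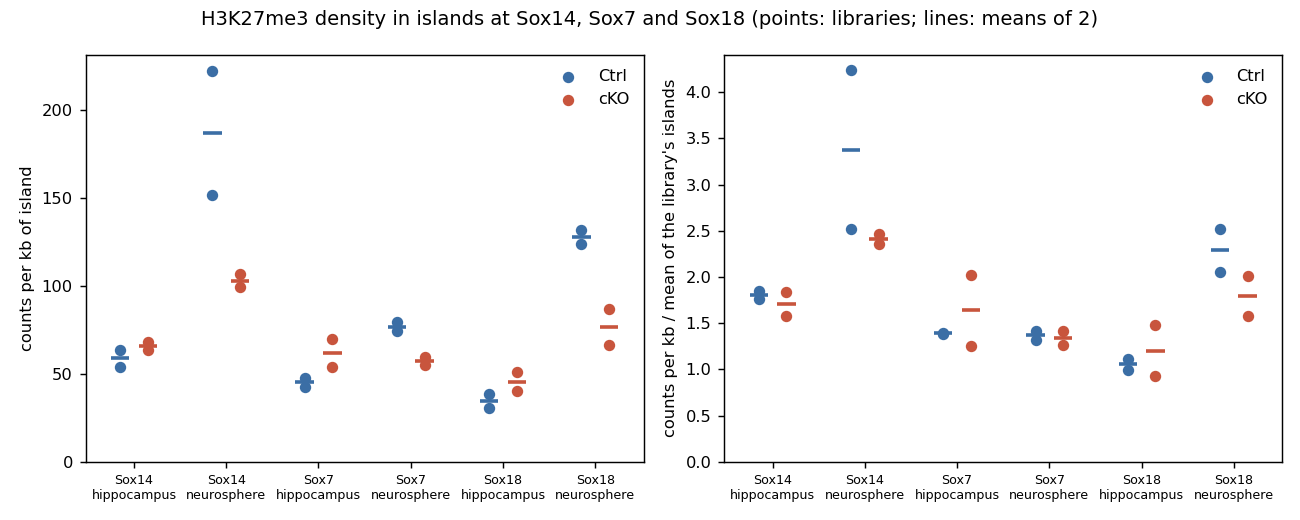
Counts per kb in the H3K27me3 island at Sox14, Sox7 and Sox18 (left), and the same divided by the mean over all islands of the library (right), for hippocampus and neurospheres; points are libraries, lines means of 2, Ctrl blue and cKO red, and both axes start at 0. In neurospheres, Sox18 had 124 and 132 counts per kb in Ctrl against 86.7 and 66.3 in cKO, and Sox7 overlapped once divided by the library mean.

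In hippocampus the density ran the other way. H3K27me3 counts per kb were 48.3 and 41.7 in Ctrl against 59.1 and 56.0 after deletion at Sox1, 53.4 and 38.3 against 56.3 and 57.9 at Sox21, 47.6 and 42.8 against 54.1 and 70 at Sox7, and 38.3 and 30.5 against 40 and 51.1 at Sox18. All 4 genes were thus higher in cKO without overlap, and Sox14 overlapped. The same held for 78.0% of 1833 promoter islands called in all 4 libraries. After division by the library mean, all 5 genes overlapped between genotypes.

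Counts were then tested in regions, the islands of a mark and source merged over libraries, where all 4 libraries had an island. The count of a region is the sum over its islands, so it depends on both called length and density. A region had to reach the promoter in at least 1 library, so in others its islands could lie outside the promoter. For Sox1 in neurosphere H2AK119ub1, promoter coverage was 80% and 0% in Ctrl and 0% in both cKO libraries. For Sox9 in neurosphere H3K36me2, it was above 0% in cKO replicate 1 alone. With the quasi-likelihood test of edgeR and Benjamini-Hochberg adjustment over all regions, 0 regions passed a false discovery rate (FDR) of 0.05 in each of the 6 comparisons, with 0.00% called. The share with an unadjusted p under 0.05 was 1.09% for H2AK119ub1, 3.53% for H3K27me3 and 4.93% for H3K36me2 in hippocampus, and 1.67%, 18.4% and 2.14% in neurospheres. The Wald test of DESeq2 called 0, 3 and 9 regions in hippocampus and 32, 734 and 83 in neurospheres, among them 0 of 18 regions at members. A single member region had an unadjusted p under 0.05 in the edgeR fit of all 4 libraries without a block or an offset. It was Sox18 in neurosphere H3K27me3, with 1364 and 1009 counts (Ctrl) against 711 and 610 (cKO). Its log2 fold change was -0.82 ± 0.23 (SE), with an edgeR p of 0.0150 and an adjusted p of 0.206. Of the 11262 regions tested there, 8.94% had such a p with cKO lower. Without cKO replicate 1 the adjusted p of Sox18 was 0.0195 (edgeR) and 2409 regions passed, and under the other alternatives it lay between 0.149 and 0.725. On counts per called kb its log2 fold change was -0.25.

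The other regions at members gave smaller ratios to their errors. In neurosphere H3K27me3, Sox14 had 6831 and 5382 counts in Ctrl against 4469 and 5736 after deletion (log2 fold change -0.26 ± 0.17 SE, edgeR adjusted p = 0.438), and Sox7 had 1270 and 816 against 1096 and 1178 (0.15 ± 0.21, adjusted p = 0.698). In hippocampus H3K27me3 the log2 fold changes were -0.48 for Sox1, -0.32 for Sox14, -0.28 for Sox21, 0.054 for Sox7 and -0.48 for Sox18, with standard errors of 0.25 to 0.49 and an adjusted p of 0.994 for each. That of Sox18 was 0.13 on counts per called kb. In neurosphere H2AK119ub1, Sox1 had 1019 and 401 counts in Ctrl against 69 and 420 after deletion, with a log2 fold change of -1.23 ± 0.74 (SE). Sox14, Sox9 and Sox7 gave -0.38, 0.53 and -0.11 there, with an adjusted p of 1.00 for each of the 4 (edgeR).

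**Figure D4:**
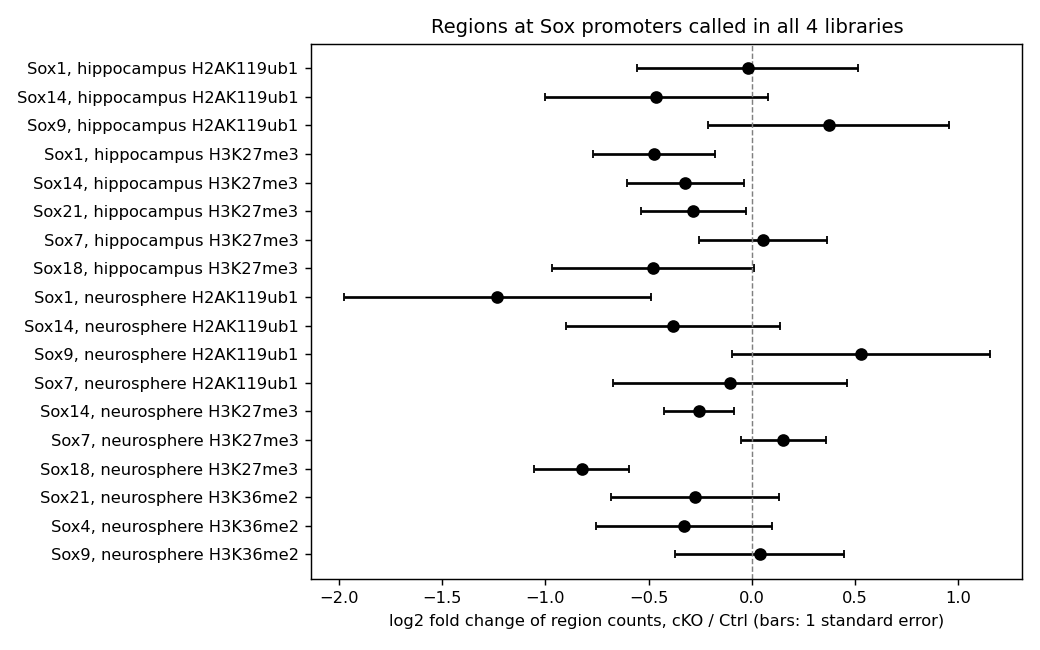
Log2 fold change of counts, cKO over Ctrl, for the 18 regions at Sox promoters that had an island in all 4 libraries of a mark and source; points are edgeR estimates and bars 1 standard error. Sox18 in neurosphere H3K27me3, at -0.82, lay farthest from 0 relative to its error.

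The change after loss of the CxxC domain was compared between sources as an interaction, over regions with an island in each of the 8 libraries of a mark. Here too, the islands of some libraries could lie outside the promoter. For H3K27me3 it was 0.43 ± 0.35 (SE, log2, neurosphere minus hippocampus) at Sox14, 0.71 ± 0.43 at Sox7 and 0.035 ± 0.53 at Sox18, with edgeR adjusted p-values of 0.673, 0.560 and 0.985. For H2AK119ub1 it was -0.72 ± 0.73 at Sox1, -0.030 ± 0.79 at Sox14 and -0.26 ± 0.83 at Sox9, each with an adjusted p of 0.998 (edgeR). For H3K36me2 it was 0.82 ± 0.85 at Sox4 and -0.18 ± 0.53 at Sox9 (edgeR adjusted p = 0.956 and 0.982). Of 1555, 2373 and 5204 regions of H2AK119ub1, H3K27me3 and H3K36me2, 0 were past an FDR of 0.05 (edgeR, 0.00% called), and an unadjusted p under 0.05 was found for 1.41%, 10.9% and 3.94%.

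H3K36me2 was almost absent from the Sox promoters and present beside most of them. In hippocampus, 12.15% of the Sox8 promoter in Ctrl replicate 2 was the single overlap in 4 libraries, and 0 of 10 members against 0.424% of promoters had an island in all 4. In neurospheres no member had an island in all 4 libraries, as 4.85% of promoters did. Coverage there was 10% and 17.825% at Sox4, in Ctrl replicate 1 and cKO replicate 2, 16.8% at Sox7 in Ctrl replicate 2, and at most 1% at Sox21 and Sox18 in Ctrl. In cKO replicate 1, the library that stood apart, it was 75% at Sox7, 65% at Sox18, 47.15% at Sox8 and 30.575% at Sox9. The mean over the 10 genes was 1.10% and 1.76% in Ctrl against 21.8% and 1.78% in cKO, and the difference of 10.4 percentage points was 0.355 without cKO replicate 1. Over all promoters the mean was 10.4% and 8.74% in Ctrl against 22.0% and 3.95% in cKO.

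The neighbourhood was different. Within 50 kb on each side of the TSS, neurosphere H3K36me2 covered 51.6% to 63.4% around Sox2, 55.4% to 69.8% around Sox21, 53.7% to 74% around Sox4, 37.6% to 51.4% around Sox11, 70% to 82.6% around Sox9, 27.8% to 81.4% around Sox8 and 47.6% to 71% around Sox1. The median over all genes was between 1.80% and 23.2% in these 4 libraries. Around Sox14 the coverage was 0% in all 4, and around Sox18 it was 9.6% and 5.2% in Ctrl against 39.4% and 7% in cKO. Sox1 was the only member lower in cKO without overlap, at 64.2% and 47.6% against 66.2% and 71%, as 4.84% of genes were. In hippocampus, Sox1, Sox21 and Sox8 were higher (13.1% of genes) and Sox2 was lower (4.76%). At Sox9 a region of H3K36me2 from 112783001 to 112839600 of chromosome 11 held 2556 and 2385 counts in Ctrl against 2344 and 1575 in cKO, and at Sox4 a region from 28955001 to 28972200 of chromosome 13 held 618 and 472 against 271 and 372. The log2 fold changes were 0.039 ± 0.41 (SE) for Sox9 and -0.33 ± 0.43 for Sox4 (edgeR adjusted p = 0.991 and 0.962). Of the 3 genes with H3K27me3 in every library, Sox14 thus had no H3K36me2 around it, Sox18 had at most 9.6% outside cKO replicate 1, and Sox7 had 43.9% and 58.8% in Ctrl against 60.3% and 1.8% in cKO.

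**Figure D5:**
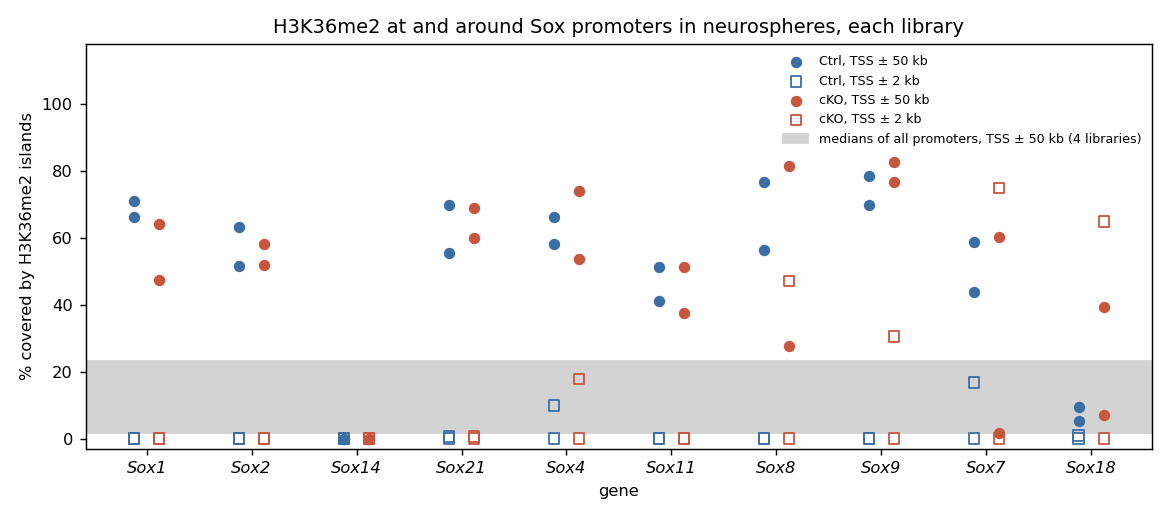
Percentage covered by H3K36me2 islands in each neurosphere library within 50 kb (filled circles) and 2 kb (open squares) of the TSS of the 10 Sox genes, Ctrl in blue and cKO in red; the grey band spans the medians of all genes in the 4 libraries at 50 kb, 1.80% to 23.2%. At Sox2, Sox21, Sox4, Sox11 and Sox1 the wide window was covered over 37.6% to 74% while the promoter stayed at or under 17.825%, and Sox14 had none in either window.

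H2AK119ub1 in hippocampus differed mainly between library numbers, as the counts in islands did, and their part in the values of members was not tested. An island lay at 3 and 9 of the 10 members in Ctrl and at 0 and 8 in cKO, and the mean coverage was 22.8% and 86.4% in Ctrl against 0% and 68.2% in cKO. Over all promoters it was 2.67% and 12.3% in Ctrl against 1.68% and 16.1% in cKO. In the libraries numbered 2 the mean over CpG-rich promoters was 15.3% and 16.6%. No member had an island in all 4 libraries, as 1.59% of promoters did. In neurospheres the mean was 67.6% and 30% in Ctrl against 28.2% and 30.7% in cKO, and the difference of the means was -19.3 percentage points and -0.535 without Ctrl replicate 1. There, 2 of 10 members (Sox14 and Sox7) had an island in all 4 libraries, against 6.72% of promoters.

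Promoter coverage separated the genotypes for 1 of 10 members in 1 of 6 comparisons, that of Sox18 given above. In hippocampus, 0 of 10 were lower or higher in cKO for H2AK119ub1 (0.483% and 0.579% of promoters), H3K27me3 (0.793% and 3.62%) and H3K36me2 (0.524% and 0.948%). In neurospheres, 0 of 10 were higher for H2AK119ub1 (2.13%), and 0 of 10 were lower or higher for H3K27me3 (5.33% and 3.43%) and H3K36me2 (2.76% and 2.08%).

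Of the other 9 Sox genes, 6 separated the genotypes in coverage, in either direction, in at least 1 of the 6 comparisons of a mark and source, as did 1 of the 10 members (Sox18) and 22.4% of all promoters. In neurosphere H2AK119ub1, Sox6, of the D subgroup, had a coverage of 100% in each Ctrl library and 0% in each cKO library, and Sox3, a B1 gene, one of 100% and 9.25% against 0% in both. Sox17, an F gene, was higher there, at 100% and 76.15% in cKO against 50% and 0%. Sox6 had the reverse in neurosphere H3K36me2, at 0% in both Ctrl libraries and 100% and 65.1% in cKO. In hippocampus H3K27me3, Sox5 was lower than Ctrl, at 44.425% in both cKO libraries against 80% and 75%, and Sox10 was higher, at 84% and 100% against 59% and 54%. In neurosphere H3K27me3, Sox30 had 52.725% and 67.725% in Ctrl and 42.725% and 0% in cKO. Each of these tests gave the smallest p for 2 against 2 libraries (exact permutation p = 0.333).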

How the data were processed

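ChIP-seq of 3 marks was analysed in 24 libraries, with groups and replicate numbers from the sample labels. The authors trimmed reads with cutadapt, aligned them to mm10 with Bowtie2 (version 2.4.5 per the submitters' processing notes), discarded duplicate reads by samtools, then ran SICER for islands (version not given in the sources used here) in each library against input, with windows of 200 bp, gaps of 600 bp and an FDR of 0.01. The deposited files give the position of each island and its raw read count, which the authors did not normalise. The sum of counts in islands follows the length called and is not the sequencing depth, so no counting interval was computed.

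Promoters were 2 kb on each side of the TSS in GENCODE vM21. CpG-rich meant that GC content exceeded 50% and observed over expected CpG exceeded 0.6 in 1 kb. Width and density come from the island with the largest overlap with the promoter. Coverage was compared by two-sided exact permutation tests (Python 3.11.15, numpy 2.4.6, scipy 1.17.1). Region counts were tested with edgeR 4.0.16 (TMM, quasi-likelihood) in R 4.3.3, and DESeq2 1.42.0 was an alternative, all with Benjamini-Hochberg adjustment over all regions. The programs were tested on simulated data. The 10 members, the markers and the lists were chosen with earlier results of these data known. All 10 members were named, and other Sox genes where coverage did not overlap between genotypes. Alternatives were other windows, islands of at least 2 kb, equal covered length, other scalings, a count minimum of 50, called length as an offset, the replicate number as a block and leaving out each library. Input libraries were not analysed here, and 1 marker promoter is not reported here.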

Additional observations from a re-analysis of the deposited data

Results flagged for a closer look

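H3K27me3 counts per kb at Sox7 and Sox18 ran in opposite directions in the sources. For Sox7 the ratio of cKO to Ctrl means was 1.37 in hippocampus and 0.744 in neurospheres, and for Sox18 it was 1.32 and 0.598, each without overlap between genotypes. The difference between sources in this density was not tested. The interaction of region counts is a related measure that also depends on called length. It was 0.71 ± 0.43 (SE, log2, neurosphere minus hippocampus) for Sox7 and 0.035 ± 0.53 for Sox18, with edgeR adjusted p-values of 0.560 and 0.985. Neither value was below 0, while the density ratios were lower in neurospheres. Of all promoter islands called in all 4 libraries, 78.0% were denser in hippocampus cKO and 69.8% less dense in neurosphere cKO without overlap. Each direction was thus that of most promoter islands in its source.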

How the results depend on the processing

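The difference in mean coverage of the 10 genes (cKO minus Ctrl, percentage points) moved by less than the spread between replicates under 46 of 60 alternatives. For neurosphere H2AK119ub1 it was -39.3 with the libraries numbered 1 alone and 0.715 with those numbered 2, and for neurosphere H3K36me2 20.7 and 0.0275, both choices made after seeing the data, as were the crossed numbers and the source differences without single libraries. For neurosphere H3K27me3 it was 0 at TSS ± 1 kb, -1.80 at ± 5 kb, 0 with the libraries numbered 1 and -1.265 to 0 without single libraries. For hippocampus H3K36me2 it was 0, -1.70 and 0 likewise, -1.215 with the libraries numbered 2 and -1.215 to 0 without single libraries. All 36 alternatives moved the source difference of the mean by less than the spread between replicates. Its direction turned for H2AK119ub1 without hippocampus Ctrl replicate 2 and without hippocampus cKO replicate 2. The H3K27me3 source differences of Sox1 and Sox21 passed p = 0.05 over all 70 splits (exact permutation p = 0.0286, adjusted 0.403). At equal covered length, source differences of single genes reversed for Sox11 (11.25), Sox8 (21.075) and Sox7 (-37.95) in H2AK119ub1. That of Sox8 (-3.04) also did so in H3K36me2. In Ctrl alone, those of Sox8 reversed in H2AK119ub1 (10) and H3K36me2 (-6.08).

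Regions past the FDR rose from 0 with DESeq2 to 3 in hippocampus H3K27me3, 9 in hippocampus H3K36me2, and 32, 734 and 83 in neurosphere H2AK119ub1, H3K27me3 and H3K36me2. With called length as an offset they were 1 in hippocampus H3K36me2, 1 in neurosphere H2AK119ub1 and 295 in neurosphere H3K27me3. Without single libraries they were 0 to 23 in hippocampus H3K27me3 (highest without cKO replicate 1), 0 to 671 in neurosphere H2AK119ub1 (without Ctrl replicate 1), 0 to 2409 in neurosphere H3K27me3 and 0 to 2039 in neurosphere H3K36me2 (both without cKO replicate 1). The lone library of a group is then assumed to vary like the others. With the replicate block they were 9 in hippocampus H3K27me3 and 0 in the other 5 comparisons, and with numbers crossed 5 in hippocampus H3K27me3 and 0 in the other 5. Deviations of same-numbered libraries correlated at 0.3273, 0.2656 and 0.01555 in hippocampus H2AK119ub1, H3K27me3 and H3K36me2, and at -0.3224, -0.1213 and 0.3101 in neurospheres. The labels do not say what a number marks, and the numbers were not taken as pairs. The interaction count was 0 under its alternatives and was not refitted without single libraries.

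The member regions whose log2 fold change turned sign had estimates smaller than their standard error in the fit with all libraries. With the offset they were 0.053 for Sox1 in hippocampus H2AK119ub1, -0.068 for Sox7 and 0.13 for Sox18 in hippocampus H3K27me3, and -0.075 and -0.065 for Sox9 in neurosphere H2AK119ub1 and H3K36me2. With the block Sox1 in hippocampus H2AK119ub1 was at 0.00062. Without single libraries the ranges were -0.25 to 0.23 for that region, -0.14 to 0.29 for Sox7 in hippocampus H3K27me3, and -0.79 to 0.030 for Sox4 in neurosphere H3K36me2, and -0.065 (without cKO replicate 1) to 0.14 for Sox9 there, which was at -0.044 without Ctrl replicate 2. The cause of these changes was not tested. With 2 libraries a group and islands called per library, a lost island and a weaker signal cannot be told apart.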
